A study of Mus musculus with 19 samples.

Results

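Of 7 livers measured, 3 were chosen by the signals of their acute phase genes, the highest of all, and set against the other 4. The score of a liver was the mean log2 signal of 6 genes, Saa1, Saa2, Orm2, Lbp, Fgb and Fgg, each read from its brightest probe after signals below 10 had been set to 10. The 3 livers of highest score were AD + DW liver 4, AD + OPP liver 1 and AD + OPP liver 2, called the high-score livers here. The other 4 were AD + DW livers 1, 2 and 3 and AD + OPP liver 3. Because measured signals chose the 3 livers, every difference between the 3 and the 4 is given as a description with no test.

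All 7 livers came from male BALB/c mice, an inbred strain, aged 12 weeks and fed an atherogenic diet rich in fat and cholesterol for 6 weeks. The AD + DW group drank distilled water and the AD + OPP group drank oil palm phenolics, a water extract of the oil palm fruit, at 1500 ppm gallic acid equivalent (GAE). By the methods of the study the mice were killed after an overnight fast. Livers, spleens and hearts were measured on 19 Illumina MouseRef-8 arrays in all, and the labels number the replicates without naming the animal or the cage, so the p-values given below measure the spread between these arrays.

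In the acute phase response, cytokines released at a site of injury or infection, chiefly interleukin-6 and interleukin-1, act on hepatocytes through the transcription factors STAT3, NF-kB and C/EBP. Hepatocytes then secrete more serum amyloid A, fibrinogen and other positive acute phase proteins, and make less of a range of other products, among them many cytochrome P450 enzymes. Neutrophils and macrophages enter or respond in the same organ, and a bulk liver holds RNA of all these cells.

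Saa1 and Saa2 encode the serum amyloid A proteins of plasma. Their promoters are shown because these genes differed most among those of the score, with the 250 bases before each transcription start taken from RefSeq on GRCm38.p6. Capitals mark a match, on either strand, to the C/EBP letters TTGCNNAA.
Saa1, chr7:46742981-46743230, minus strand: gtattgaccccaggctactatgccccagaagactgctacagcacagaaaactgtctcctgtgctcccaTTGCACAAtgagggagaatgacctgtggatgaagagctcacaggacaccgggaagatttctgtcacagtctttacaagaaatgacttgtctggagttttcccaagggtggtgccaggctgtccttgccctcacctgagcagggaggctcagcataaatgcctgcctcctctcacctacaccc
Saa2, chr7:46751583-46751832, plus strand: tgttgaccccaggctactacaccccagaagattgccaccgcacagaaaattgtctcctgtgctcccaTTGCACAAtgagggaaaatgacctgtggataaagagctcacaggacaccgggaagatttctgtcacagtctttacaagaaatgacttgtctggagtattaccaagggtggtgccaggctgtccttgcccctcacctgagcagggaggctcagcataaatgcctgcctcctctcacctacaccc
The match TTGCACAA began 182 bases before the start in Saa1 and 183 bases before it in Saa2. Aligned, 238 of 250 bases, or 95.2%, were identical between the Saa1 and Saa2 promoters. The genes themselves are also nearly alike, so a probe of either can take up RNA of the other. The C/EBP letters were present in 9.56% of the 32851 mouse promoters of the same length.

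The scores of the high-score livers were 12.77 in AD + DW liver 4, 13.24 in AD + OPP liver 1 and 13.06 in AD + OPP liver 2. The scores of the other livers were 9.42, 9.70 and 11 in AD + DW livers 1, 2 and 3 and 10.45 in AD + OPP liver 3. The lowest score inside the set was thus 12.77 and the highest outside it 11, a gap of 1.77 on the log2 scale or 3.42-fold. The mean was 13.02 ± 0.24 (SD, n = 3) against 10.14 ± 0.71 (SD, n = 4). Both treatments stood on both sides of the division, with 1 of 4 AD + DW livers and 2 of 3 AD + OPP livers among the high-score livers. The score was 10.72 ± 1.53 in the AD + DW group (SD, n = 4) and 12.25 ± 1.56 in the AD + OPP group (SD, n = 3), and the groups overlapped.

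**Figure D1:**
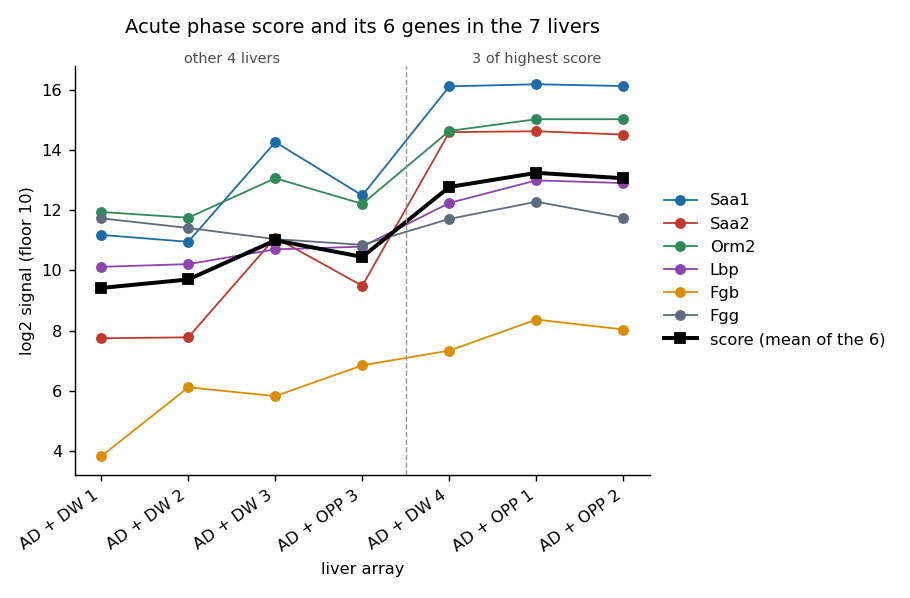
Acute phase score of each of the 7 livers (mean log2 signal of Saa1, Saa2, Orm2, Lbp, Fgb and Fgg), with the genes of the score as smaller marks. The 3 high-score livers lie between 12.77 and 13.24 and the other 4 between 9.42 and 11, with both treatments on each side.

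In what follows, signals are normalized intensities, given first for AD + DW liver 4, AD + OPP liver 1 and AD + OPP liver 2 and then for AD + DW livers 1, 2 and 3 and AD + OPP liver 3. The Saa1 signal was 70941, 74099 and 71462 against 2327, 1979, 19629 and 5758. The Saa2 signal was 24625, 25107 and 23368 against 215, 219.8, 2182 and 719.5. Every high-score liver exceeded every other liver for both genes, and AD + DW liver 3 was the highest of the other 4. Orm2, an orosomucoid that binds drugs in plasma, had 25311, 33182 and 33233 against 3922, 3434, 8515 and 4734. Lbp, the lipopolysaccharide binding protein, had 4822, 8119 and 7618 against 1109, 1188, 1661 and 1771. Fgb, the fibrinogen beta chain, was read by a dim probe detected on 4 of 7 livers, with 162, 331 and 264 against 14.2, 69.4, 56.9 and 116. Orm2, Lbp and Fgb were apart between the sets. For Fgg, the fibrinogen gamma chain, they overlapped, as AD + DW liver 1 had 3403 against 3344 in AD + DW liver 4.

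Of the hepatocyte markers, Alb bore out the labelled tissue, as it was detected on 0 spleens and 0 hearts, and Ttr on 0 spleens and 1 heart. Alb, Apoa1, Ttr, Serpina1a and Cyp2e1 were detected on 7 of 7 livers, and each overlapped between the sets. The last 2 and Apoa1 were not particular to liver. Apoa1 was also detected on 6 hearts, Cyp2e1 on 6 hearts and 1 spleen, and Serpina1a on 6 spleens and 3 hearts. The markers Col1a1 and Des of stellate cells, Krt7 and Krt19 of bile ducts, Cd3e and Lck of T cells and Cd79a and Cd79b of B cells were detected on 0 livers, but Col3a1 of stellate cells was detected on 6 and overlapped, and Cd3d of T cells was detected on 1. Of 12 measured stellate cell and matrix genes 3 were higher and 0 lower (median 0.39), and 1 gene passed only through the high-score livers. With the unnormalized signal 1 of the 12 was higher and the median was 0.06. The summed signal of the 23 genes with a probe was 10506 to 14822 in the high-score livers against 7321 to 11001. Several properties of the arrays moved with the division. The slope that the authors' normalization applied was 1.448 to 1.547 in the high-score livers and 1 to 1.406 in the others, the median signal of all probes was 26 to 29.2 against 21.8 to 24.6, and the 100 brightest probes held 32.7 to 33.9% of the signal against 29.8 to 30.9%. Detected probes numbered 6365 to 6831 against 6105 to 6883. The part of these properties in the results was not tested.

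A probe was measured when it was detected, at a detection p under 0.01, on at least 3 of 7 livers. It was called higher when its lowest signal in the high-score livers exceeded its highest in the others, and lower in the reverse case. Of 6895 probes measured, 1006 (14.6%) were higher and 568 (8.24%) lower, and 303 (4.39%) were higher and 117 (1.7%) lower by at least 2-fold. Taken as 5416 named genes, each by its brightest probe, 15.2% were higher and 8.18% lower, 4.67% and 1.66% by at least 2-fold. The median difference over all genes was 0.07 on the log2 scale, and 58.7% of genes lay above 0. These shares are the background against which the gene lists below are read. The balance of the calls rested on the scaling. Of the calls, 63.9% were higher with the deposited normalization, 50.1% (787 higher, 785 lower) with scaling to a common median, 44.9% (705 and 866) with quantile normalization, also after normexp correction, and 21.5% (309 and 1128) with the unnormalized signal, which still holds the background. The median over all probes was −0.11 with the unnormalized signal, so small differences are relative to the scaling chosen. Sizes rested on it too, since 117 of 190 named differences moved by over 1.5 times with the unnormalized signal and 89 with quantile normalization.

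The other positive acute phase proteins followed the score. Of 33 genes listed beside the score genes, 26 were measured, of which 19 were higher and 0 lower, with a median difference of 1.13 against 0.07 over all genes. The median was 0.78 to 1.07 under the other scalings. Saa3, a serum amyloid made also outside the liver, had 1788, 1805 and 1489.8 against 596, 162, 322 and 399.7. Orm1, the second orosomucoid, had 54050.1, 65129 and 68315 against 12598, 12757, 23309 and 16187. The sets were far apart for both, with differences of 2.34 and 1.99. Apcs, serum amyloid P and a pentraxin of mouse plasma, had 8515 to 10204 against 2719.5 to 5081 (difference 1.38). Saa4, the constitutive serum amyloid, had 10254 to 11884 against 3839 to 7849.9, a smaller difference of 0.89. Cd14, the coreceptor for lipopolysaccharide, was detected on all 3 high-score livers (603 to 1064) and on none of the others, and was at least 9.18-fold higher. This bound compares the mean of the high-score livers with the lowest signal detected on each of the other arrays, or with the probe's own signal where that was higher.

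Lcn2, or lipocalin 2, withholds iron from bacteria and is made by both hepatocytes and neutrophils. Its promoter is shown beside those of the serum amyloids because it was among the largest differences and carries the C/EBP letters as well, in capitals.
Lcn2, chr2:32387740-32387989, minus strand: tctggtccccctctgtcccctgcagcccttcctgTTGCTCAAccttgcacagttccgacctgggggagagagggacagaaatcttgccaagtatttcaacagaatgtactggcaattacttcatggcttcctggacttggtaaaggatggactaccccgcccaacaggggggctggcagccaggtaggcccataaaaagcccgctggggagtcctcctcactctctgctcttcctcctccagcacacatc
The match TTGCTCAA began 216 bases before the start. The Lcn2 signal was 26007, 36500.4 and 33599.5 against 436, 268, 4833 and 940.4, a difference of 5.22. The sets were apart, and AD + DW liver 3 lay between them, well above the other 3 livers outside the set.

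The negative acute phase proteins did not move as one. Of 19 measured genes 4 were higher and 3 lower, and the median difference was 0.04, turning to −0.03 to −0.21 under the other scalings. Serpina6, the corticosteroid binding globulin of plasma, had 681, 382 and 116 against 1178, 1208, 1627 and 1189.7. It was lower in every high-score liver, by −2.05, and lowest in AD + OPP liver 2. Selenbp2, a selenium binding protein, had 1952 to 4438 against 9928 to 20287, a difference of −2.16. Ghr, the growth hormone receptor, was lower by −1.08. On the other side stood Trf, the iron carrier transferrin, with 62363 to 74355 against 33923 to 44089 and a difference of 0.90, Fetub, a fetuin, with 1.21, and Ahsg, fetuin A, with 0.43. Apoa2 had a difference of 0.19 that turned to −0.06 with the unnormalized signal.

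The receptor and signaling genes of the response were higher in part. Of 13 measured genes of interleukin-6 signaling 4 were higher and 0 lower (median 0.61). Stat3, the transcription factor that the receptor activates, had 2295, 2783 and 3183 against 1297, 1569, 1446 and 1342, a difference of 0.95. Socs3, the inhibitor that switches this receptor off, had 1074, 729 and 1764 against 146, 135, 302 and 261, a difference of 2.49. Both were apart between the sets, with the highest signal in AD + OPP liver 2. Junb, a subunit of the AP-1 transcription factor, differed by 1.62 and was detected on 1 of the other 4 livers.

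Of 23 measured genes of interleukin-1, TNF and NF-kB signaling 9 were higher and 1 lower, with a median of 0.59, and 1 gene passed the detection filter only through the high-score livers. With the unnormalized signal 4 were higher and 2 lower, with a median of 0.10. Of the 15 detected on all 7 livers 4 were higher and 1 lower. Among the inhibitors, Irak3, which restrains Toll-like receptor signaling, was detected on all 3 high-score livers and on none of the others, with 459, 347 and 333 against 8.2, 8.4, 44.2 and 14.0, and was at least 4.24-fold higher. Tnfaip3, or A20, an enzyme that ends NF-kB signaling, had 312 to 706 in the high-score livers and was detected only in AD + DW liver 3 among the others, at 124. Nfkbiz, a nuclear cofactor of NF-kB that is needed for a set of secondary targets, had 1439, 1088 and 1039 against 148, 268, 454 and 166, a difference of 2.33. Again AD + DW liver 3 was the highest of the other 4 for all of these. Of the receptors and targets, Tlr2, which senses bacterial lipoproteins, had 187 to 247 against 51.5 to 176 and the adhesion molecule Icam1 had 709.6 to 759 against 224 to 383. Il1b itself was dim, with 94.0 to 236 against 24.8 to 87.0.

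Cxcl1 and Cxcl13, chemokines that draw neutrophils and B cells, were higher. Cxcl1, a ligand of the neutrophil receptor Cxcr2, is shown with its promoter because the NF-kB letters (GGG, then any 2 bases, then TTTCC, in capitals for either strand) occur in it at 2 places.
Cxcl1, chr5:90890995-90891244, plus strand: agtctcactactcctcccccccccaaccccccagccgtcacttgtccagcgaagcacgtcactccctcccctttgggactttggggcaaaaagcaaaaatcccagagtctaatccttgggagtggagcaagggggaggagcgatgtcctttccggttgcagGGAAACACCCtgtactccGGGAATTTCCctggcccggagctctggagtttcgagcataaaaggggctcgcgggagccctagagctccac
The matches began 89 and 71 bases before the start. The letters were present in 1.41% of all promoters, in 1.44% of those of the measured genes, in 10 of 240 promoters (4.17%) of the genes higher by at least 2-fold and in 0 of 91 promoters of the genes lower by at least 2-fold. For the C/EBP letters the shares were 17.9 and 13.2%, against 9% for the measured genes. For the STAT letters TTCNNNGAA they were 6.67 and 5.49%, against 6.01% for the measured genes and 7.02% for all promoters. Genes of the score that chose the livers, Saa1 and Saa2 among them, were kept in the higher set, so its shares are a description only. All such shares count promoters, and a gene can have several, as the 240 belong to 185 genes and the 91 to 69. A match of letters is not a binding site, and 4442 of 5416 measured genes had a promoter in the table.

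The Cxcl1 signal was 10564, 3741 and 11307 against 405, 695, 1053 and 886, a difference of 3.42 with the sets apart. Cxcl13, which attracts B cells, had 912, 2189.5 and 7946 against 81.7, 54.4, 582 and −2.1. Its difference of 5.14 rested in part on the floor in AD + OPP liver 3, and was 4.56 with a floor of 50, 4.19 without that liver and 2.83 with the unnormalized signal. The lowest Cxcl13 signal inside the set was 912 and the highest outside it, in AD + DW liver 3, was 582. Of 11 measured chemokine and receptor genes 7 were higher and 1 lower (5 and 1 with the unnormalized signal), although 3 of them passed the detection filter only through the high-score livers. These 3 were Cxcr2, Ccl6, a chemokine of myeloid cells, and Cxcl14, which were at least 1.33, 1.48 and 2.25-fold higher. The lower gene was Cxcl9, a target of interferon gamma, with 52.7 to 103 in the high-score livers, where it was not detected, against 115 to 366, or at least 2.18-fold lower.

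**Figure D2:**
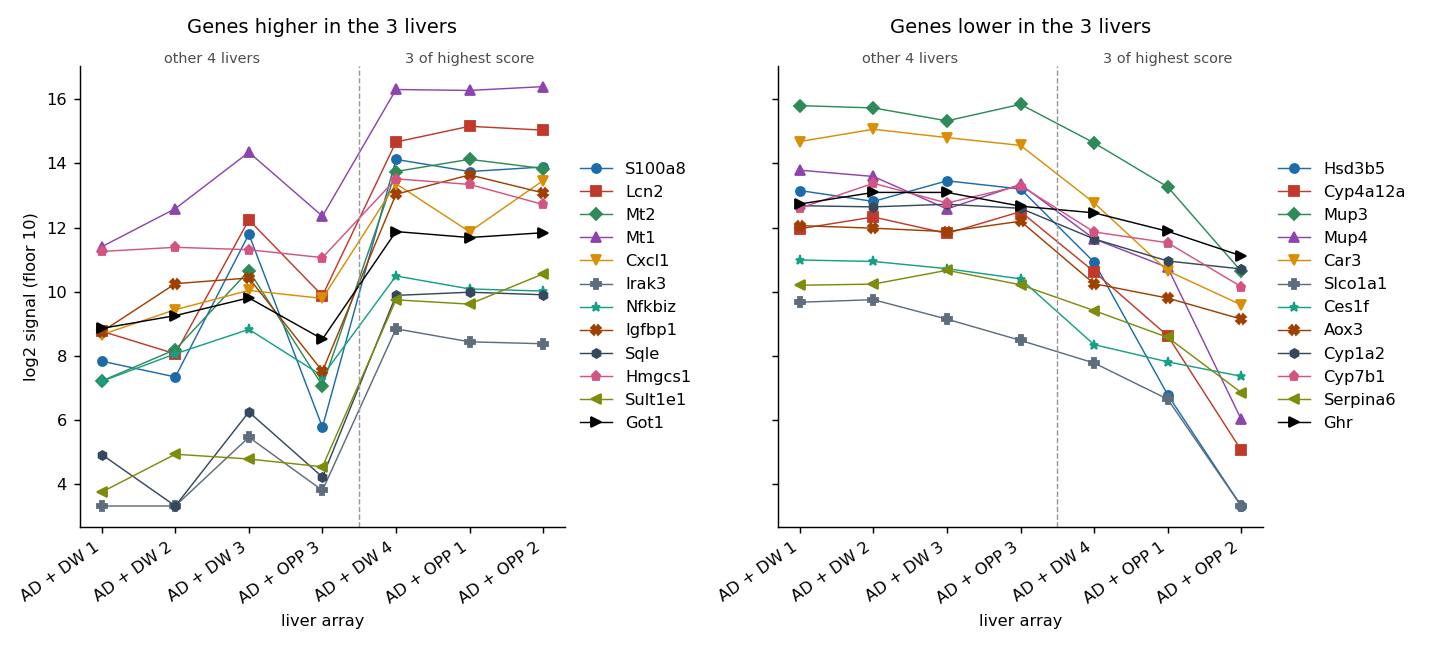
Log2 signal (floor 10) in each of the 7 livers of 12 genes that were higher (left) and 12 that were lower (right) in the high-score livers. Lines only join the points of a gene. On the right the lowest points are in AD + OPP liver 2 and on the left AD + DW liver 3 lies above the other livers outside the set for Lcn2, S100a8, Mt1 and Mt2.

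Metal handling was part of the same division. Metallothioneins bind zinc and copper and are induced through metal response elements, and Mt2 is shown because its signal was among those that differed most. Capitals mark the letters TGCACNC or TGCGCNC on either strand.
Mt2, chr8:94172368-94172617, plus strand: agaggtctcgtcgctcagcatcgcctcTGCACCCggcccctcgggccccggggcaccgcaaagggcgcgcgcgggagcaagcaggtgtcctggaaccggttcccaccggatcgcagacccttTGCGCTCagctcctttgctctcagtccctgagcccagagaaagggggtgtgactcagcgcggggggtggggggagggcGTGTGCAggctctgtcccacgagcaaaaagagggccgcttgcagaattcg
The 3 matches began 223, 128 and 50 bases before the start, and these letters were present in 21.4% of all promoters but in 29% of those of the measured genes, above the 25.4% of the genes higher by at least 2-fold and the 24.2% of those lower. The Mt2 signal was 13749, 17885 and 14660.4 against 149, 293, 1615 and 135, a difference of 5.62. The Mt1 signal was 80859.6, 79226 and 86039.8 against 2706, 6166, 20824 and 5239, a difference of 3.65. In AD + DW liver 3 both lay above the other livers outside the set and below all 3 within it. Before normalization the Mt1 signal reached 81.1 to 87.5% and the Saa1 signal 71.2 to 77.5% of the brightest signal of the array in the high-score livers, against 4.1 to 22.2% and 2.4 to 20.9% in the others. How far such bright probes can still follow the RNA was not tested.

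Of 23 measured genes of iron, heme and metal handling 9 were higher and 1 lower (median 0.39). Slc39a14, the zinc and iron importer ZIP14 of hepatocytes, had 285, 338 and 399 against 94.8, 180.2, 50.7 and 148, a difference of 1.67. Tfrc, the transferrin receptor, had 455 to 649.6 against 151 to 278, and Cp, the copper oxidase ceruloplasmin, had 5867 to 11657 against 2461 to 3437. The sets were apart for these. Hamp, the iron hormone hepcidin, named for its role in the list, overlapped, with 8099.7, 20842 and 26580.2 against 23199, 22937, 7213 and 27504.

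Neutrophil genes also followed the division. S100a8 and S100a9 encode the calcium binding pair calprotectin that fills the neutrophil cytosol. The S100a8 signal was 17855, 13737 and 15159 against 228, 162, 3552 and 54.9, a difference of 5.73. The S100a9 signal was 11547, 9997 and 9002 against 259, 184, 2805 and 112, a difference of 4.86. Both were apart, and AD + DW liver 3 was again between the sets. Ltf, the lactoferrin of secondary granules, had 2070.2, 1344 and 1131 against 20.4, 12.5, 369 and 32.5. Camp, the cathelicidin precursor, had 992, 864 and 479.9 against −7.5, −21.1, 248 and −8.2. Ngp, a granule protein of maturing neutrophils, was detected on none of the other livers and was at least 6.21-fold higher, with 525 to 577. Ltf and Camp were detected only in AD + DW liver 3 among the other 4.

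Of 34 genes of the secondary and tertiary granules and cytosol 16 were measured, 14 of them higher and 0 lower, and 6 of these passed the filter only through the high-score livers, so the count over measured genes is not read as a share. The 4 measured genes of the primary granules, made in the bone marrow at the promyelocyte stage, were all higher. Mpo, myeloperoxidase, had 399, 1024 and 383 against 38.1, 30.3, 249 and 18.7, and Prtn3, proteinase 3, had 658, 756 and 721 against −9.0, 8.6, 109 and 79.0. Elane, neutrophil elastase, was apart by little, with 104, 242 and 155 against 40.2, 35.5, 103 and 19.3. The collagenase Mmp8 was detected on 0 livers. Over all 27 genes of this list with a probe, detected or not, the summed signal was 79211 to 87019 in the high-score livers and 14031 to 25050 in the others. For the 8 primary granule genes with a probe it was 3334 to 4753 against 890 to 2028. In bulk tissue, more cells of a type and more RNA per cell cannot be told apart, and the part of these cells in the other differences was not tested.

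Macrophage genes stood higher as well, with 11 of 17 measured genes higher, 0 lower and a median of 1.25. With the unnormalized signal 4 were higher (median 0.61). Vsig4, a complement receptor of resident macrophages, had 2589.6, 2178 and 2927 against 1249, 985, 1875 and 462. Csf1r, the receptor for their growth factor, had 606, 832 and 599.7 against 384, 325, 475 and 191. AD + OPP liver 3 was lowest for both and had the lowest mean of the list, 7.35 against 8.31 to 9.24 in the other 3 livers outside the set and 9.61 to 9.77 within it. The subunits C1qa, C1qb and C1qc of the first complement component, which macrophages make, differed by 1.14, 1.47 and 1.34, or by 0.83, 0.79 and 0.91 without AD + OPP liver 3. Also higher were Fcgr3, an antibody receptor, by 1.71 and Lgals3, galectin 3, by 1.51. The Kupffer cell marker Clec4f overlapped, with 1157 to 1451 against 348 to 1347, Marco overlapped too, and Cd68 was detected on 0 livers. The summed signal of the 30 genes with a probe was 17044 to 18748 against 4097 to 13654.

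Of 15 measured endothelial genes 5 were higher and 0 lower, with a median of 0.54. With the unnormalized signal 1 of the 15 was higher and the median was 0.15. Of the 9 detected on all 7 livers 1 was higher, against 15.2% of all genes, so the count rested on dimmer genes and on the scaling. Lyve1, a hyaluronan receptor of sinusoids, had 154 to 178 against 9.9 to 93.7, and Cdh5, the cadherin of endothelial junctions, had 264 to 276 against 44.8 to 188. Stab2 overlapped and Kdr was detected on 0 livers. The summed signal of the 22 genes with a probe was 6287 to 7928 against 3048 to 5764, lowest in AD + OPP liver 3. Col4a1, a basement membrane collagen, was detected on none of the other 4 livers and was at least 3.54-fold higher. Of 6 measured red cell genes 0 were higher and 1 lower, and 5 had differences below 0 (median −0.24). The lower gene was Car1, a carbonic anhydrase of red cells (−1.77, or −0.86 with the unnormalized signal), while Hba-a1, a globin chain, and Alas2, of heme synthesis, overlapped. The summed signal of the 13 red cell genes with a probe was 16769 to 52655 against 17927 to 74642, and its part in the results was not tested.

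Genes of cholesterol synthesis were higher together. Of 33 genes listed 18 were measured, 12 of them higher and 0 lower, with a median of 1.22 (0.64 to 1.15 under the other scalings) and 1 gene that passed the filter only through the high-score livers. That gene was Sqle, squalene epoxidase, an early oxygen-requiring step, with 946, 1013 and 959 against 30.4, −3.6, 76.2 and 18.7, at least 11-fold higher. Hmgcs1, which makes the substrate of the rate-limiting reductase, had 11734, 10399 and 6744 against 2444, 2673, 2538 and 2138, a difference of 1.94. The other 4 livers lay close together for Hmgcs1, and AD + DW liver 3 was not the highest of them. Idi1, an isomerase of isoprenoid precursors, had 417 to 717 against 40.4 to 138. Nsdhl, Cyp51 and Msmo1, which remove methyl groups from lanosterol, differed by 2.03, 1.99 and 1.92. Pltp, the phospholipid transfer protein, had 438 to 568 against 48.8 to 172 and Scd1, the stearoyl-CoA desaturase, 30194 to 35232 against 13239 to 25849. The wider list of lipogenesis and lipid storage had 6 higher and 3 lower of 24, with a median of 0.05 that turned to −0.01 to −0.15 under the other scalings.

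Glucocorticoid targets and immediate early genes were higher in part. Of 14 measured glucocorticoid targets 7 were higher and 0 lower, while 7 overlapped (median 0.99), Mt1 and Mt2 among them. Dusp1, a phosphatase of stress kinases, had 3396, 3134 and 3254 against 694, 1339, 862 and 627, a difference of 1.95. Fkbp5, a cochaperone of the glucocorticoid receptor, had 1159 to 2089 against 294 to 1005, a difference of 1.67. Cdkn1a, the cell cycle inhibitor p21, was detected in AD + DW liver 2 alone among the other 4, at 210, against 281 to 751. The sets were apart for these 3 genes, and among the other livers AD + DW liver 2 was the highest for each. Of 11 measured immediate early and stress genes 7 were higher, 0 lower and 4 overlapped, and 3 had differences below 0 (median 1.46), but the median was 0.16 over those detected on all 7 livers. Egr1, a growth response factor, had 454 to 1474 against 33.3 to 257, Gadd45g, a growth arrest gene, 603 to 807 against 33.4 to 128 and Ier3 was at least 2.03-fold higher.

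Igfbp1, a binding protein of insulin-like growth factors that insulin represses, had 8409, 12778 and 8662 against 432, 1218, 1378 and 184, a difference of 4.01. Ppargc1a, a coactivator of gluconeogenic genes, had 731, 835 and 608 against 162, 199.5, 225 and 128, a difference of 2.04. Got1, the cytosolic aspartate aminotransferase, had 3756, 3302 and 3664 against 463, 611, 897 and 368, a difference of 2.69. The signals of all 3 genes were apart between the sets, and AD + OPP liver 3 had the lowest of all 7 livers. The list of glycolysis and gluconeogenesis as a whole did not move one way, with 4 of 25 measured genes higher, 5 lower and a median of 0.06. Of 45 measured genes of amino acid catabolism and the urea cycle 10 were higher and 2 lower, close to the background, with a median of 0.10 that was −0.14 with the unnormalized signal. Among them were Cth, of cysteine synthesis (1.39), Asl and Arg1, of the urea cycle (1.31 and 0.95), and Mat1a, which makes S-adenosylmethionine (1.00).

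Some of the largest differences were of genes not in the lists above. Cstdc6, a cystatin domain gene, had 2147, 2079 and 3583 against −15.2, −22.8, 94.3 and −28.7. Its difference of 7.17 rested on the floor of 10 under 3 of the other livers, and was 5.43 with a floor of 50, 7.92 with a floor of 5 and 3.46 with the unnormalized signal. Sult1e1, the estrogen sulfotransferase, had 859, 783 and 1504 against 13.5, 30.6, 27.6 and 23.3 and was at least 11.3-fold higher, and Cyp17a1, a steroid hydroxylase, had 1168, 2169 and 3940.1 against 62.0, 82.3, 42.7 and 68.7. For all 3 the high-score livers stood far above the other 4, of which at most 1 had a detected signal. Cyp4a14, a fatty acid hydroxylase induced through PPAR alpha, was at least 11.7-fold higher but uneven, with 204, 1371 and 4005. Its relative Cyp4a10 had 9600.3, 21971 and 27829 against 4037, 8006, 2585 and 3446. Cyp2c39 had 5845, 10647 and 11639.5 against 1254, 488, 3207 and 412, a difference of 3.24.

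**Figure D3:**
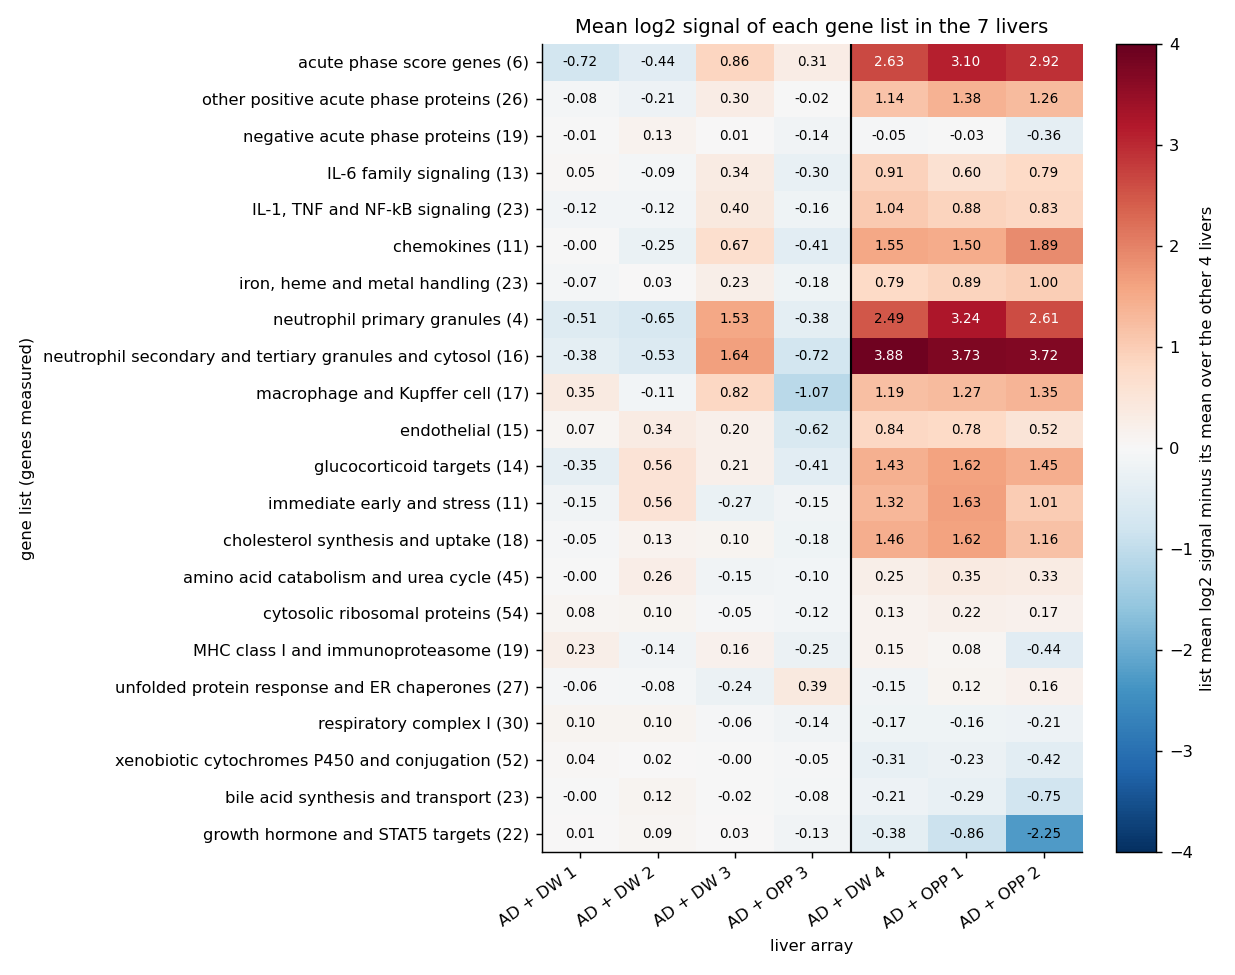
Mean log2 signal of 22 gene lists in each of the 7 livers, shown as the difference from the mean over the other 4 livers (the number of measured genes is in parentheses). In the high-score livers cholesterol synthesis reaches 1.16 to 1.62 and the growth hormone and STAT5 targets −0.38, −0.86 and −2.25, while 6 of the 16 secondary granule genes passed the detection filter only through these livers.

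On the lower side, targets of growth hormone led. Growth hormone acts on the male liver in pulses through STAT5 and sustains genes of male mice such as the major urinary proteins. Of 22 measured targets 12 were lower and 2 higher, against 8.18% and 15.2% of all genes, with a median of −1.19 that ranged from −0.86 to −1.26 under the other scalings and was −0.81 without AD + OPP liver 2. Hsd3b5, a steroid reductase of male mouse liver, had 1939.6, 111 and −7.1 against 9111, 7203, 11242 and 9429.6. Its difference of −6.15 rested in part on the floor in AD + OPP liver 2, and was −5.37 with a floor of 50, −6.48 with a floor of 5 and −4.30 without that liver. Mup3, a major urinary protein, had 25516, 9861 and 1594 against 57068, 54297, 41067 and 58677, a difference of −2.83. Slco1a1, an organic anion transporter, had 219.5, 101 and 5.2 against 816, 862, 566 and 358, a difference of −3.35. In each the signal was lowest in AD + OPP liver 2 and highest, of the high-score livers, in AD + DW liver 4. Mup4 differed by −3.85, and since the Mup genes are nearly identical their probes may share signal. The 2 higher genes of this list were Socs2, an inhibitor of growth hormone signaling (5489 to 6858 against 767 to 3637), and Igfbp1.

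The same gradient among the high-score livers held for many lower genes. Of the 117 probes lower by at least 2-fold, 93 had their lowest signal in AD + OPP liver 2, 14 in AD + OPP liver 1 and 10 in AD + DW liver 4. Of the 303 probes higher by at least 2-fold, the highest signal was in AD + OPP liver 2 for 119, in AD + OPP liver 1 for 101 and in AD + DW liver 4 for 83. Cyp4a12a, a fatty acid hydroxylase of male mice, had 1578, 395 and 33.4 against 3989, 5146, 3604 and 5779, and Cyp4a12b, which is nearly identical to it, differed by the same −4.05. Car3, a carbonic anhydrase, had 6988, 1606 and 772 against 26263, 34257, 28598 and 24169, a difference of −3.77. For both, AD + DW liver 4 had the highest and AD + OPP liver 2 the lowest signal of the high-score livers. Without AD + OPP liver 2 the differences of 15 of the 190 named genes, all lower genes, shrank by over 1.5 times, among them Mup3 (−1.72), Mup4 (−2.12), Slco1a1 (−2.05), Cyp4a12a (−2.53), Nat8 (−1.67), Serpina6 (−1.34), Cyp8b1 (−0.91) and Klkb1 (−0.26). Nrep differed by −3.64, Ces1f, a carboxylesterase, by −2.92, Nat8, an acetyltransferase, by −2.63 and Cela1, an elastase, by −2.44. Moxd1, Keg1 and Dclk3 were detected on none of the high-score livers and were at least 1.92, 1.85 and 2.25-fold lower.

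Drug-metabolizing enzymes were the largest list on the lower side. Of 52 measured genes of cytochromes P450 and conjugation 25 were lower and 5 higher, with a median of −0.57 (−0.46 to −0.64 under the other scalings). Aox3, an aldehyde oxidase, had 1218, 892 and 567 against 4269, 4039, 3753 and 4698, a difference of −2.30. Cyp1a2, which oxidizes caffeine and arylamines, had 3202, 1989 and 1674 against 6566, 6402, 6778 and 6207, a difference of −1.56. For both, the other 4 livers lay within a narrow range and every high-score liver was well below it. Cyp2d9 differed by −1.51 (−0.90 without AD + OPP liver 2), Cyp4v3 by −1.31 and Gstp1, a glutathione transferase, by −1.31 with all 3 of its probes lower. Gclc, which makes glutathione, had 96.9 to 279 against 302 to 502.

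Of 23 measured genes of bile acid synthesis and transport 5 were lower and 1 higher, with a median of −0.17. Cyp8b1, which makes the precursor of cholic acid, had 6881, 5352 and 1749 against 9612, 14067, 11347 and 10906, a difference of −1.50. Cyp7b1, of the alternative pathway and higher in male mice, had 3725, 2949 and 1142 against 6231, 10655, 6957 and 10129, a difference of −1.83. The sets were apart for both. Of complement, 10 of 25 measured genes were higher and 3 lower, but with the unnormalized signal 1 was higher and 6 lower. C6 and C9 of the terminal complex differed by −1.41 and −1.19, but by −0.89 and −0.56 without AD + OPP liver 2, whereas Cfp, or properdin, which stabilizes the alternative convertase, differed by 1.21. Of the coagulation genes 5 of 20 were higher and 1 lower, Thbd, thrombomodulin (1.62), and Klkb1, plasma kallikrein (−0.40), among them. With the unnormalized signal 3 coagulation genes were higher and 3 lower.

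Several of the remaining lists had medians near 0. Of 27 genes measured in the unfolded protein response, 0 were higher and 1, Sec61b, a subunit of the translocon, was lower, with a median of 0.03. Of 19 genes of MHC class I and the immunoproteasome 0 were higher and 0 lower. Of 54 cytosolic ribosomal proteins 14 were higher and 0 lower by small steps, with a median of 0.18, but with the unnormalized signal 0 were higher and 1 lower and the median was −0.07. Of 30 subunits of respiratory complex I 8 were lower and 0 higher, with a median of −0.14, and of 34 subunits of complexes II to V 8 were lower and 1 higher, with a median of −0.15, so that the counts of lower genes exceeded the background of 8.18% although the differences were small. Ndufa3, a complex I subunit, had 1264 to 1466 against 1927 to 2586, and Sdhb, the iron-sulfur subunit of complex II, 1925 to 2327 against 2766 to 3665. The medians of both lists kept their sign under the other scalings. Of 15 clock genes 4 were lower, a count likewise above that background, Wee1 among them, and 1, Nfil3 (1.00), was higher. The median of the clock genes was not near 0, at −0.45, and was −0.21 without AD + OPP liver 2. Of 32 genes of fatty acid oxidation 5 were higher and 4 lower, with Acaa1b, a peroxisomal thiolase, at −1.21 and Pdk4, a kinase that spares glucose, at 1.16. Hnf4a, the nuclear receptor that maintains hepatocyte identity, had 11470.1 to 14030.2 against 8744 to 11449.

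AD + DW liver 3, the liver of the highest score outside the set, did not stand equally between the sets in all groups. On a scale where 0 is the mean of the other 3 livers outside the set and 100% is the mean of the high-score livers, in log2 signal, its median position was 34.7% over the 303 probes higher by at least 2-fold and 5% over the 117 probes lower by at least 2-fold. It was the nearest of the other 4 to the high-score livers in 173 of the 303 and 42 of the 117. By list, over the genes that did not overlap, its median position was 66.3% for the primary granule genes, 72.3% for macrophage genes, 48% for secondary granule genes and 40.5% for metal handling, against 12.3% for cholesterol synthesis, 2.4% for immediate early genes, 16.6% for growth hormone targets and 14.7% for xenobiotic enzymes. Without AD + DW liver 3, 15 of 17 macrophage and 9 of 11 chemokine genes were higher in place of 11 and 7. Of the endothelial genes, 8 of 15 were higher without this liver, and 10 when AD + OPP liver 2 was left out, against 5 of 15 over all livers. The background rises too, since fewer arrays have to be apart. Of all probes, 19.1% were higher without AD + DW liver 3 and 19.6% without AD + OPP liver 2, in place of 14.6%.

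**Figure D4:**
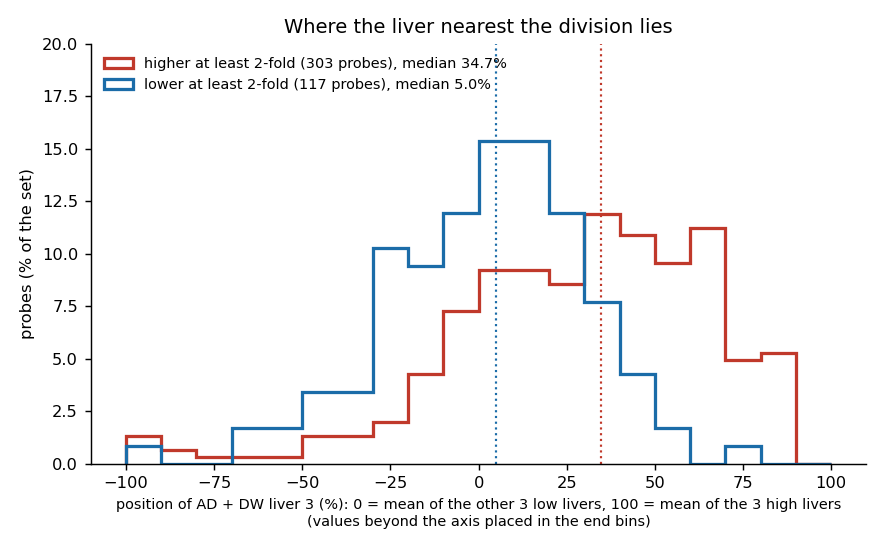
Position of AD + DW liver 3 between the mean of the other 3 livers outside the set (0%) and the mean of the high-score livers (100%), as the percent of probes in each bin. The probes higher by at least 2-fold (303) have a median of 34.7% and those lower by at least 2-fold (117) a median of 5%.

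Each treatment holds livers of both sets, so the division could be drawn inside each. The difference of AD + DW liver 4 from the mean of AD + DW livers 1 to 3 and that of the mean of AD + OPP livers 1 and 2 from AD + OPP liver 3 were taken for 5410 genes, the score genes left out. Across genes, which are not independent, Pearson's r was 0.77 and Spearman's rho 0.60. These comparisons share no array, but all arrays were normalized to AD + DW liver 1 and the livers had been divided by their acute phase signals. Inside the AD + DW group 222 genes were higher by at least 2-fold, of which 187 (84.2%) were also higher by at least 2-fold inside the AD + OPP group, which is 41% of the 456 genes higher there. Of 71 genes lower inside the AD + DW group, 46 (64.8%) were lower in the AD + OPP group too, or 29.3% of its 157, and 1 was higher there by at least 2-fold. With 1 liver on a side of each comparison, the error of these differences is not known.

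**Figure D5:**
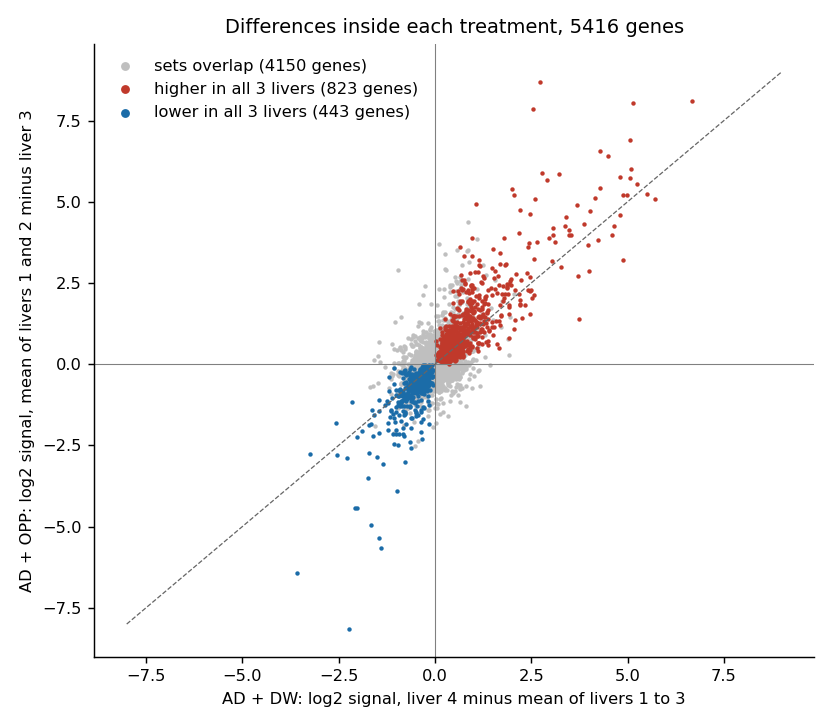
Log2 difference of AD + DW liver 4 from AD + DW livers 1 to 3 (horizontal) and of AD + OPP livers 1 and 2 from AD + OPP liver 3 (vertical) for 5416 genes, with the genes higher (823) or lower (443) in all high-score livers in color. Every colored gene lies in the lower left or upper right quadrant because its call requires it, so only its distance from the dashed line of equal differences can vary.

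The treatment itself was the labelled contrast, and it was tested with limma over 6007 probes. At an adjusted p under 0.05, 0 probes differed between the AD + OPP and the AD + DW livers, with a smallest adjusted p of 0.417. At an unadjusted p under 0.01 there were 80 probes (1.33%), and 495 at an unadjusted p under 0.05, while a two-tailed test of each probe with its own variance alone, which is the default of the study but not what its methods give for arrays, gave 0 after adjustment and 470 at an unadjusted p under 0.05. With the acute phase score as a covariate, 157 probes had an unadjusted p under 0.01 and 0 an adjusted p under 0.05. Genes with large differences between the sets had a wide spread inside each treatment. The log2 fold change of AD + OPP over AD + DW was 2.42 for Lcn2 (adjusted p = 0.705, limma), 0.86 for S100a8 (adjusted p = 0.933) and 1.72 for Mt2 (adjusted p = 0.808). It was −4.81 for Hsd3b5 (adjusted p = 0.592) and 0.51 for Hmgcs1 (adjusted p = 0.837). Without AD + OPP liver 3, the AD + OPP liver of low score, 265 probes had an unadjusted p under 0.01 in place of 80, and still 0 an adjusted p under 0.05.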

How the data were processed

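Total RNA of livers was hybridized to Illumina MouseRef-8 Version 1 BeadChips of 24048 probes. The deposited signal intensity of each probe was normalized by the authors with the rank invariant method of BeadStudio 1.5.1.3, the version in the submitters' processing notes, and every liver array was a slope times its unnormalized intensity plus an intercept (slope 1 in AD + DW liver 1, the reference). The deposited detection p-value sets a probe against negative controls. The authors had removed outlier arrays by hierarchical clustering, and slides are not given in the sources used here.

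Probes were named by the platform annotation (19397) or the study's tables (403), which gave the same gene for 99.1% of 3113 shared probes, and 4248 had no name. Signals under 10 were set to 10 before log2. Differences between the sets are differences of mean log2 signals. The labelled groups were compared with limma 3.58.1 (statmod 1.5.0) in R 4.3.3, two-sided, with Benjamini-Hochberg adjustment, over probes detected on every array of either group. Both steps were tested on simulated data.

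The livers and the 44 gene lists (1285 genes, 799 measured) were chosen with earlier results of these data known. Genes named were the score genes, up to 6 per list and the 15 higher and 15 lower overall with the largest difference among genes without overlap, and the defining markers, of which 2 genes are not reported here. Other floors, scalings, background correction, detection filters, fits and arrays left out were tried as alternatives. For arrays, their number limits the precision.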

Additional observations from a re-analysis of the deposited data

Results flagged for a closer look

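Within the 4 AD + DW livers, 232 gene signals and list means were examined for 1 array that stood far from the other 3, taking the gap to the nearest array as a share of the whole range. Of these, 15 of 232 exceeded Dixon's critical value, not far above the share of about 1 in 20 groups of 4 in which chance exceeds it. Genes of a list are not independent of each other. For 11 genes the array apart was AD + DW liver 4, the only AD + DW liver of high score, so these values restate the division inside 1 treatment. For any gene called higher or lower, the call itself makes this liver the extreme AD + DW array.

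AD + DW liver 4 was the lowest for Aox3 (share 0.897), Ces1f (0.897), Car3 (0.833), Car1, a carbonic anhydrase (0.955), and Cyp1a2 (0.924). It was the highest for the cholesterol synthesis genes Hmgcs1 (0.943), Msmo1 (0.909) and Cyp51 (0.854), for Junb (0.915) and Ier3 (1.000), and for Col4a1 (0.970). In Ier3 the other 3 AD + DW livers were all at the floor.

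The same held for list means. The mean of the cholesterol synthesis genes stood apart at the high end (0.881), those of the xenobiotic enzymes (0.886) and of the growth hormone and STAT5 targets (0.830) at the low end. The mean of the lipogenesis and lipid storage genes stood apart at the low end (0.913) through AD + DW liver 1.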

How the results depend on the processing

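The same 3 livers had the highest scores under each of 4 other scalings, with a gap of 1.43 to 1.69. The other floors and the mean over all probes, of which each score gene has 1, left the gap at 1.77. The gap was 1.01 with 32 positive acute phase genes, which include the 6 that chose the livers. It was 1.77 to 2.32 when 1 array was left out, which can only keep or widen a gap between a lowest and a highest score. The unnormalized signal gave 309 probes higher and 1128 lower in place of 1006 and 568, and it still holds the background. Quantile normalization gave 866 lower, also after normexp correction, and without the detection filter 1653 were higher, of more probes. With 1 array left out, 1131 to 1354 were higher and 693 to 840 lower, since fewer arrays have to be apart. For the 190 genes named by the rule, 2189 of 2470 recomputed differences moved by no more than the pooled SD within the sets, 271 moved by more and 10 turned. These sets were chosen by the score and mix both treatments, so this SD is not a spread between replicates of a condition. Among the small values that turned were, with the unnormalized signal, Apoa2 (−0.06), Apoc4 (−0.02), Atp5j (−0.01), Prdx1 (−0.14), Psmd7 (−0.01), Rpl10 (−0.01) and Tmed10 (−0.07), and Prdx1 was −0.03 with quantile normalization, also after normexp correction. The cause was not tested. For AD + OPP against AD + DW livers, limma gave 0 probes at an adjusted p under 0.05 in every alternative, with 46 to 265 at an unadjusted p under 0.01 when 1 array was left out. The list counts that leave out AD + DW liver 3 or AD + OPP liver 2, or use genes detected on all 7 livers were added after the data had been seen.

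With the replicate number as a block, AD + DW liver 4 was left out, since no AD + OPP liver has its number. For the remaining livers limma then gave 0 probes at an adjusted p under 0.05 and 61 at an unadjusted p under 0.01. Without AD + DW liver 4 and with no block, limma gave 96 at an unadjusted p under 0.01. The deviations of same-numbered livers from their group means correlated at −0.281, −0.397 and 0.051. Those of AD + OPP livers 1, 2 and 3 correlated with AD + DW liver 4 at 0.462, 0.612 and −0.74. Because these deviations carry the acute phase division, they cannot show whether the numbers pair the arrays. The number of arrays and, for the probes detected on few of them, the signal over background limit these results.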
